A study of Mus musculus with 10 samples.

Results

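The genes described here handle or sense retinoic acid. They are 9 in number, of 15997 gene symbols listed in both deposited tables, namely Cyp26b1, Dhrs3, Rdh10, Aldh1a3, Crabp2, Rara, Rarb, Rarg and Rxra. They were found by gene symbol, and the set was selected on the values of both inhibitor comparisons, whose results were known, so the members' differences between inhibitor and DMSO are given as a description with no test. All 9 are listed in both tables. Levels are in RPKM, the reads per kilobase of transcript scaled to the size of the library. A filter of a mean of at least 1 RPKM over all libraries of a table kept 6 of the 9 in each table and removed Aldh1a3, Crabp2 and Rarb.

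RNA was measured in ASZ001, a murine basal cell carcinoma (BCC) line that the study treats as resistant to Smoothened inhibition. There were 2 experiments, 1 for each inhibitor, each with DMSO libraries of its own. In the first, 3 DMSO libraries were set against 3 libraries of cells given 10 µM SB431542, which blocks the TGFß type I receptor kinase ALK5. In the second, 2 DMSO libraries were set against 2 libraries of cells given 20 µM T-5224, an inhibitor of the transcription factor AP-1. All cells, controls included, were kept for 24 h in medium with 0.2% serum and 0.05 mM calcium chloride, a low calcium level that holds keratinocytes in an undifferentiated state. The study asked by these comparisons which genes depend on TGFß and on AP-1 signaling. ASZ001 is a single line, and the study's methods call the libraries of a condition biological replicates. The tables were normalized apart, and levels are compared only within a table.

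Cells make retinoic acid from retinol in 2 oxidations. Retinol is first turned into retinal, a reversible step that Rdh10 drives forward and Dhrs3 drives back, and retinal is then turned into retinoic acid by enzymes such as Aldh1a3. Crabp2 carries retinoic acid to its receptors in the nucleus, and Cyp26b1 is a cytochrome P450 that oxidizes retinoic acid for clearance. The receptors Rara, Rarb and Rarg bind DNA as pairs with a retinoid X receptor such as Rxra. Cyp26 enzymes, Dhrs3 and Rarb are known to rise with retinoic acid in many cells, and in epidermis Rarg and Rxra are the main receptors of their kinds.

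The promoters of these genes are given first, as context for the levels. RefSeq promoters of GRCm38.p6 were given for 6 of the 9 genes, with 13 start sites between them. Crabp2, Rdh10 and Aldh1a3 had none in that table. Each window ran from 250 bases before a start site to 50 bases after it, and the 250 bases before the start are printed below in lower case. Capitals mark half-sites of retinoid receptors, searched on both strands as AGGTCA, or as GGGTCA, or as AGTTCA, or as GGTTCA. The Cyp26b1 window is shown because its levels are described first, Rarb because its window holds the repeat that retinoic acid receptors are known for, and Rara and Rxra because 1 start site of each held 4 and 3 half-sites. Rarb held 3 as well, and no other window held more than 1. The Rarb, Rara and Rxra windows were thus picked for their sites, and the upstream start of Rxra held none. Half-sites per window were not counted over all promoters.
Cyp26b1 (GRCm38.p6 chr6:84593811-84594060, minus strand): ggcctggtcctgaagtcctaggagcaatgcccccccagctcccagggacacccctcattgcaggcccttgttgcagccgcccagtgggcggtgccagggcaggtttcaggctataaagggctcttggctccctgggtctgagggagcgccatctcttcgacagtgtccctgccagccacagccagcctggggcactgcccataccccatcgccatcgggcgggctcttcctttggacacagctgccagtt
Rarb (GRCm38.p6 chr14:16575477-16575726, minus strand): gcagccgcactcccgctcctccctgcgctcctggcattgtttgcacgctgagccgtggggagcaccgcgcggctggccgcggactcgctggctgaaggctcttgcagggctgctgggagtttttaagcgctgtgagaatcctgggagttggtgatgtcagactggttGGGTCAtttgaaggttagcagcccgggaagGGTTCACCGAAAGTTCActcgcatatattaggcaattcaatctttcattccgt
Rara (1 of its 4 start sites, GRCm38.p6 chr11:98939461-98939710, plus strand): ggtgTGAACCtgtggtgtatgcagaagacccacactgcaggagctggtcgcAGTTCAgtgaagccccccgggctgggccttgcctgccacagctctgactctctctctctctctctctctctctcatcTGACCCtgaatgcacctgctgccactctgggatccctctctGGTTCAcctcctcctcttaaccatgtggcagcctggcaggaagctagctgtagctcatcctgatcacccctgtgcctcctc
Rxra downstream start (GRCm38.p6 chr2:27709042-27709291, plus strand): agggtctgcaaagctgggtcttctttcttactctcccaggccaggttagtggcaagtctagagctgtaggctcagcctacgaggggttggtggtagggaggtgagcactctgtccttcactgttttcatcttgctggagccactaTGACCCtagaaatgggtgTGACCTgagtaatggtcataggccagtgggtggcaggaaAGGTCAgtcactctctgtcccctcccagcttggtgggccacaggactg
In the Rarb window, 2 half-sites with 5 bases between them form a direct repeat from base -53 to base -37, counted from the start site, and the capitals run through the 5 bases as well. Such a repeat was found in 1 of the 13 windows and in 0.0974% of the 32851 RefSeq promoters. Repeats with 1 or 2 bases between the half-sites were found in 0 of the 13, and in 0.222% and 0.268% of all promoters. A single half-site AGGTCA was found in 3 of the 13 windows and in 16.3% of all promoters. The half-site GGGTCA was found in 3 of the 13 and in 13.7% of all promoters. AGTTCA was found in 2 of the 13 and in 14.0% of all promoters, and GGTTCA in 2 of the 13 and in 10.4%. The AP-1 motif TGANTCA was found in 0 of the 13 and in 7.81% of all promoters, and the SMAD motif CAGACA in 1 of the 13, at Rarg, and in 21.0% of all promoters. The Cyp26b1 window held none of these motifs, which says only that these letters are not in this window.

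One library stood apart. DMSO replicate 1 of the SB431542 experiment differed from the mean of the other DMSO libraries with an SD over genes of 0.272 on the log2 scale, while the same SD was 0.161 for DMSO replicate 2, 0.190 for DMSO replicate 3 and 0.123 to 0.126 in cells given SB431542. Its ribosomal RNA precursor Rn45s was at 770 RPKM, against 2101 and 2155 RPKM in the other DMSO libraries. Rn45s also varied between the T-5224 libraries, with 1862 RPKM in replicate 1 and 5184 RPKM in replicate 2, and their DMSO libraries held 3401 and 3473 RPKM. Depth was between 31.8 and 51.3 M reads. Pmepa1, a TGFß target, fell from 46.1 ± 3.21 (SD, n = 3) to 3.29 ± 0.187 RPKM with SB431542 (log2 fold change -3.62 ± 0.07, SE, limma adjusted p = 9.5e-07). It also fell with T-5224, from 53.3 ± 0.516 (SD, n = 2) to 20.6 ± 0.150 RPKM (-1.35 ± 0.06, SE, limma adjusted p = 1.42e-09).

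Rarg, Rxra and Cyp26b1 were the most abundant of the 9 genes in DMSO. Rarg stood highest, at 50.0 ± 1.99 RPKM (SD, n = 3) in the SB431542 experiment and 77.0 ± 2.05 RPKM (SD, n = 2) in the T-5224 experiment. Rxra followed at 32.1 ± 3.52 and 51.0 ± 1.58 RPKM, and Cyp26b1 at 14.4 ± 1.05 and 28.7 ± 2.25 RPKM. Below them lay Rdh10 at 11.0 ± 1.39 and 9.98 ± 0.0361 RPKM, Rara at 7.83 ± 0.435 and 11.4 ± 0.764 RPKM and Dhrs3 at 7.76 ± 0.212 and 14.1 ± 0.0700 RPKM. In the first experiment the DMSO libraries of Rara and Dhrs3 overlapped, and so did those of Aldh1a3, Crabp2 and Rarb with their neighbours in the order. No other neighbours overlapped. Aldh1a3, Crabp2 and Rarb were at most at 0.613, 0.310 and 0.094 RPKM in any DMSO library.

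Of the 6 members that passed the filter, Cyp26b1 had the lowest log2 fold change with SB431542. With T-5224 Cyp26b1 and Rxra were the lowest, at -1.17 and -1.11, and their order turned without T-5224 replicate 1 (-1.14 for Cyp26b1 and -1.15 for Rxra). The gene lies on mm9 chromosome 6 from 84521938 to 84543740 on the minus strand, with 6 exons in its longest coding transcript. Its level was 13.6, 14.0 and 15.6 RPKM in the DMSO libraries and 6.02, 5.33 and 5.39 RPKM in the SB431542 libraries. The groups were far apart, and the highest SB431542 library lay below the lowest DMSO library. This is a 2.58-fold lower mean, with a log2 fold change of -1.29 ± 0.08 (SE, on log2(RPKM + 0.5)). With T-5224 the level was 27.1 and 30.3 RPKM in DMSO and 12.2 and 12.7 RPKM in the treated cells. Again no libraries overlapped, with a mean 2.30-fold lower and a log2 fold change of -1.17 ± 0.07 (SE). Without DMSO replicate 1 the log2 fold change with SB431542 was -1.33.

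**Figure D1:**
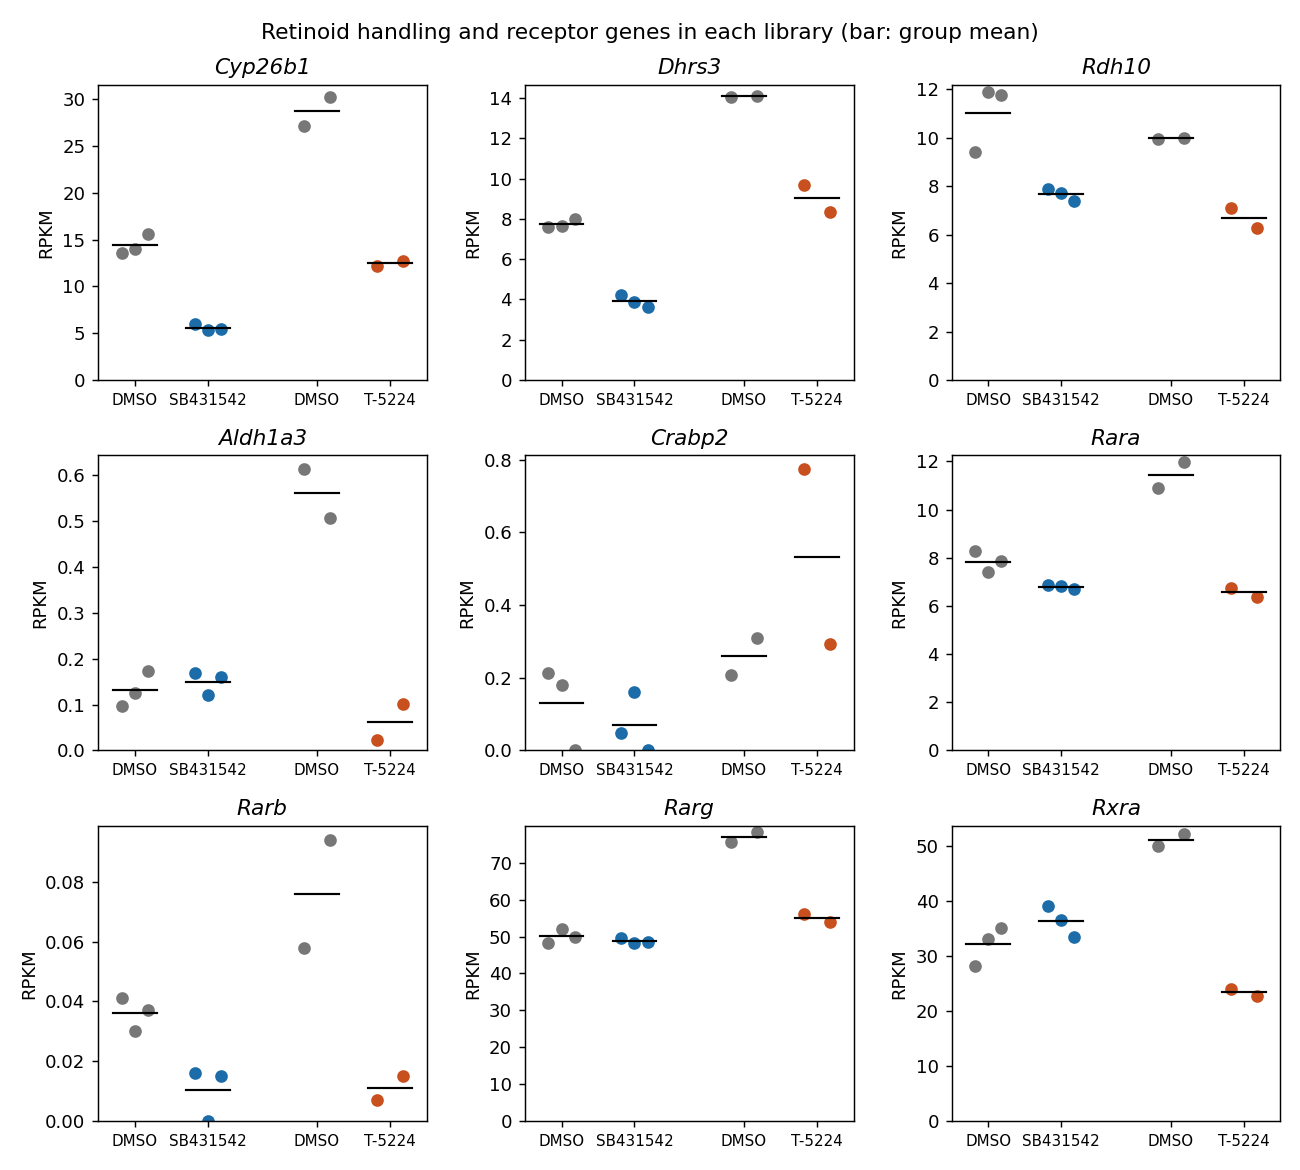
RPKM (y axis, from 0) of the 9 genes in each library, with 1 point per library, a black bar at the group mean and groups in the order DMSO, SB431542, DMSO and T-5224. Cyp26b1, Dhrs3 and Rdh10 lie lower with either inhibitor, as do Rara, by a small margin with SB431542, and Rarb, on few reads. Rxra, at 51.0 RPKM in DMSO against 23.3 RPKM with T-5224, lies lower with T-5224 alone. So do Rarg and, on few reads, Aldh1a3.

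Of the members, Dhrs3 and Rdh10 interconvert retinol and retinal, and both were lower with both inhibitors. Other enzymes of this step, given below, changed in both directions with T-5224. Dhrs3, the retinal reductase (mm9 chromosome 4, 144482730 to 144518112), was at 7.63, 7.65 and 8.004 RPKM in DMSO and at 4.21, 3.86 and 3.63 RPKM with SB431542. These groups did not overlap, and the log2 fold change of -0.91 ± 0.07 (SE), a 1.99-fold lower mean, lay just inside the limit of 1 used for calls. Without DMSO replicate 1 it was -0.92. With T-5224, Dhrs3 went from 14.0 and 14.1 RPKM to 9.69 and 8.35 RPKM (-0.62 ± 0.08, SE, on the log2 scale).

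Rdh10, the retinol dehydrogenase (mm9 chromosome 1, 16095855 to 16123815), was at 9.43, 11.9 and 11.8 RPKM in DMSO and at 7.91, 7.71 and 7.37 RPKM with SB431542. The lowest DMSO value is that of the library that stood apart, and it still lay above the 3 SB431542 libraries. Its log2 fold change was -0.49 ± 0.09 (SE), and -0.60 without that library. With T-5224, Rdh10 went from 9.95 and 10.0 RPKM to 7.10 and 6.30 RPKM (-0.54 ± 0.08, SE, on the log2 scale), a difference close to the one with SB431542 in size.

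The ratios between the RNA levels of these member enzymes shifted as well. The ratio of Cyp26b1 to Rdh10 RPKM was 1.31 ± 0.132 (SD, n = 3) in DMSO and 0.728 ± 0.0353 with SB431542, so that the order of their RNA levels turned over. With T-5224 the ratio went from 2.87 ± 0.215 (SD, n = 2) to 1.87 ± 0.212, and Cyp26b1 stayed the higher of the pair. The ratio of Dhrs3 to Rdh10 went from 0.710 ± 0.0871 to 0.509 ± 0.0211 with SB431542. With T-5224 it was 1.41 ± 0.00191 in DMSO and 1.35 ± 0.0269 with the inhibitor, where both enzymes were lower to a similar extent.

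Aldh1a3, which makes retinoic acid (mm9 chromosome 7, 73535778 to 73572403), was close to the floor of the measurement. In the SB431542 experiment it was at 0.097, 0.125 and 0.174 RPKM in DMSO and 0.169, 0.120 and 0.160 RPKM with the inhibitor, and the groups overlapped. In the T-5224 experiment it was at 0.613 and 0.507 RPKM in DMSO, which is about 67 and 68 reads, and at 0.023 and 0.101 RPKM with T-5224, about 4 and 17 reads. The mean was 9.03-fold lower there, on few reads. The other retinaldehyde dehydrogenases Aldh1a1 and Aldh8a1 were below the filter in both tables, and Aldh1a2 was below it in the T-5224 table and is not listed in the SB431542 table.

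Crabp2, the retinoic acid carrier (mm9 chromosome 3, 87752588 to 87757298), was at 0.214, 0.181 and 0 RPKM in DMSO and at 0.049, 0.160 and 0 RPKM with SB431542, which is at most about 8 reads in a library. It was at 0.208 and 0.310 RPKM in DMSO and at 0.773 and 0.292 RPKM with T-5224, about 6, 11, 37 and 13 reads. The groups overlapped in both experiments, and at this depth no difference was detectable.

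Among the retinoic acid receptors, Rarg made up most of the RNA. Rarg (mm9 chromosome 15, 102065369 to 102087948) was at 48.2, 52.1 and 49.8 RPKM in DMSO and at 49.5, 48.2 and 48.6 RPKM with SB431542, and these groups overlapped (log2 fold change -0.04 ± 0.05, SE). With T-5224 it went from 75.6 and 78.5 RPKM to 56.1 and 53.9 RPKM, a log2 fold change of -0.48 ± 0.05 (SE). Both T-5224 libraries lay below both DMSO libraries.

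Rara (mm9 chromosome 11, 98789132 to 98836256) was at 8.26, 7.39 and 7.85 RPKM in DMSO and at 6.86, 6.81 and 6.71 RPKM with SB431542 (log2 fold change -0.19 ± 0.06, SE, and -0.15 without DMSO replicate 1). The groups did not overlap, by a small margin. With T-5224 it went from 10.9 and 12.0 RPKM to 6.76 and 6.36 RPKM (-0.76 ± 0.08, SE, on the log2 scale). Rarb, the receptor gene with the repeat printed above (mm9 chromosome 14, 17263356 to 17651381), had about 4 reads in each DMSO library and 2, 0 and 2 reads with SB431542. Its reads numbered about 5 and 10 in the DMSO controls of T-5224 and 1 and 2 with that inhibitor, too few for a fold change.

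Rarg held 86.4% ± 1.12 (SD, n = 3) of the summed RPKM of the 3 receptors in DMSO and 87.8% ± 0.120 with SB431542. In the controls of T-5224 its share was 87.0% ± 0.475 (SD, n = 2), and with T-5224 it was 89.3% ± 0.116. The sum itself was 57.9 ± 1.55 RPKM in DMSO and 55.5 ± 0.714 RPKM with SB431542. With T-5224 it went from 88.5 ± 2.84 to 61.6 ± 1.88 RPKM, and over all 10 libraries the share of Rarg lay between 85.3% and 89.4%.

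With T-5224 the retinoid X receptors Rxra and Rxrb moved in opposite directions. Rxra (mm9 chromosome 2, 27531960 to 27618477) was at 28.2, 33.1 and 35.1 RPKM in DMSO and at 38.9, 36.5 and 33.4 RPKM with SB431542. The groups overlapped, and the log2 fold change was 0.18 ± 0.09 (SE), or 0.09 without DMSO replicate 1. With T-5224, Rxra went from 49.9 and 52.1 RPKM to 24.0 and 22.7 RPKM, a 2.18-fold lower mean (log2 fold change -1.11 ± 0.06, SE). Rxrb, the other retinoid X receptor detected and not a member of the set, rose with T-5224 from 32.0 and 32.9 RPKM to 38.9 and 38.3 RPKM (log2 fold change 0.25 ± 0.06, SE, limma adjusted p = 0.00157).

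The more abundant retinoid X receptor was therefore a different one after T-5224. Rxra held 61.1% ± 0.242 (SD, n = 2) of the summed RPKM of Rxra and Rxrb in DMSO and 37.7% ± 0.644 with T-5224. The sum went from 83.4 ± 2.25 to 61.9 ± 1.26 RPKM. With SB431542 the share of Rxra was 61.4% ± 0.769 (SD, n = 3), against 59.7% ± 1.65 in DMSO, and these libraries overlapped. Rxrg is not listed in either table.

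**Figure D2:**
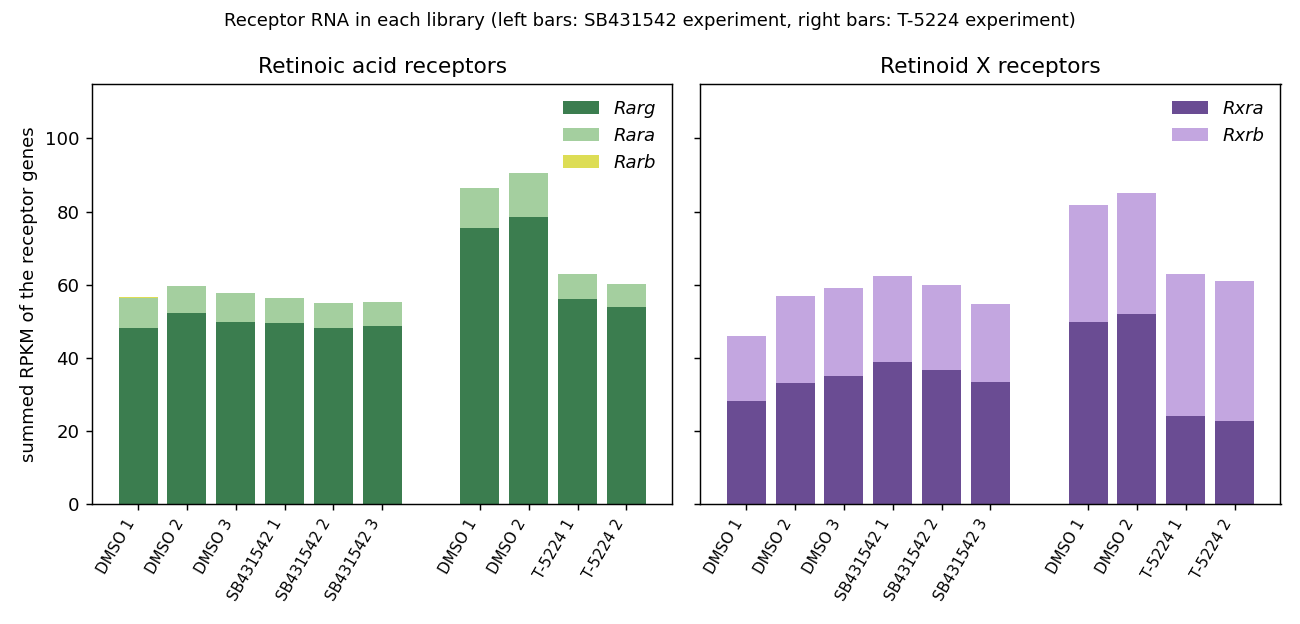
Summed RPKM (y axis, from 0) of the retinoic acid receptors on the left and the retinoid X receptors on the right, with 1 stacked bar per library. Rarg fills most of every bar on the left, and on the right Rxra falls from 61.1% of the bar in DMSO to 37.7% with T-5224.

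By the rule for calls, a log2 fold change beyond 1 and an adjusted p under 0.05, 1 of the 6 members that passed the filter was down with SB431542 (Cyp26b1) and 0 were up. Over all 10842 genes tested, 0.581% were down and 0.231% up. With T-5224, 2 of the 6 were down (Cyp26b1 and Rxra) and 0 up, where 10.6% of the 10809 genes tested were down and 10.4% up. By the adjusted p alone, 3 of the 6 were lower with SB431542 (Cyp26b1, Dhrs3 and Rdh10) against 10.0% of all genes lower and 10.2% higher, and 6 of the 6 were lower with T-5224 against 39.4% lower and 40.3% higher. Every treated library lay below every DMSO library for 4 of the 6 with SB431542 and for 6 of the 6 with T-5224. Among all genes tested this held for 21.3% with SB431542 and 44.5% with T-5224. Since the set was chosen with these comparisons known, nothing is read from its counts.

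**Figure D3:**
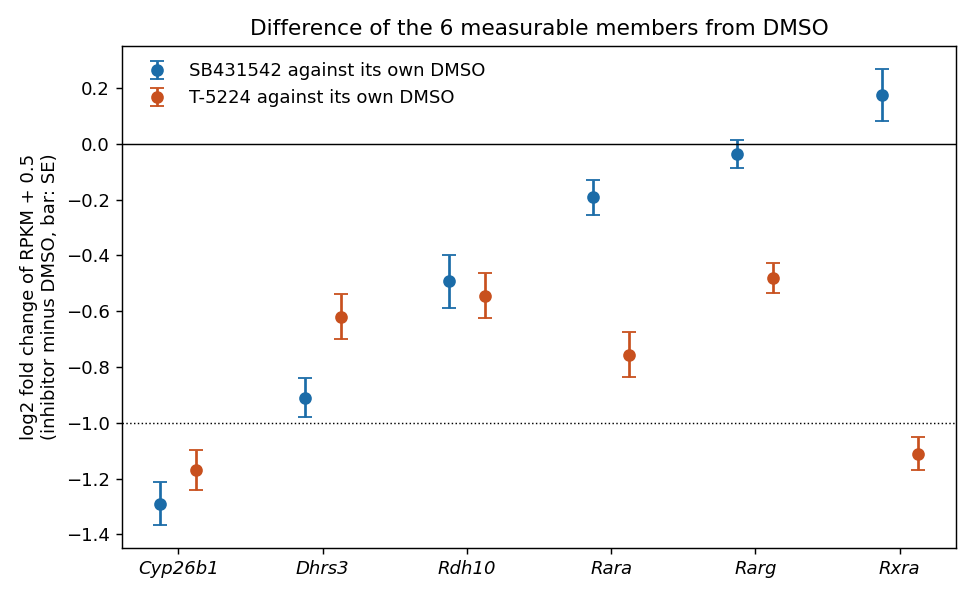
Log2 fold change of RPKM + 0.5 (y axis, inhibitor minus DMSO, bars SE) of the 6 members that passed the filter, with SB431542 in blue and T-5224 in orange and a dotted line at the limit of -1. The inhibitors lie close together at Cyp26b1 (-1.29 and -1.17) and Rdh10 (-0.49 and -0.54) and far apart at Rxra (0.18 and -1.11).

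The rest of the pathway was read from 10 lists holding 80 further genes. With SB431542, 32 of them passed the filter, of which 3 fell and 5 rose by the adjusted p of limma, with 0 past the limit on the fold change. These are 9.38% and 15.6% of the genes tested, beside 10.0% and 10.2% of all genes, and their median log2 fold change of 0.07 compares with 0.01 for all genes. Leaving out DMSO replicate 1 gave 6 lower and 9 higher, and leaving out SB431542 replicate 1 or 2 gave 1 and 1. With T-5224, 36 passed the filter, 14 were lower and 17 higher (38.9% and 47.2%, beside 39.4% and 40.3% of all genes), and 6 were called down and 6 up, with a median of 0.09 beside 0.00 for all genes. Of the list genes that passed, 2 of 32 with SB431542 and 5 of 36 with T-5224 had a mean under 1 RPKM in 1 of the groups. In the T-5224 experiment these 5 make up 2 of the 14 lower and 3 of the 17 higher, changes that the filter helped to select.

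Other enzymes at the retinol and retinal step changed in both directions with T-5224. Of 15 such genes 9 passed the filter, of which 7 rose and 2 fell, where 40.3% of all genes rose and 39.4% fell. Rdh5 and Rdh9 passed it only through the T-5224 libraries and Sdr16c5 only through DMSO, so the filter itself bears on these counts. Rdh11, a retinal reductase, rose from 13.8 and 13.2 RPKM to 33.4 and 31.8 RPKM (log2 fold change 1.24 ± 0.06, SE, limma adjusted p = 8.17e-09). Adh7, an alcohol dehydrogenase of epithelia that oxidizes retinol, rose from 14.9 and 14.1 RPKM to 36.0 and 33.2 RPKM (1.22 ± 0.07, adjusted p = 1.37e-08). Rdh11 and Adh7 were thus well above their DMSO libraries while Rdh10 and Dhrs3 were below theirs.

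Rdh12 rose from 1.10 and 1.33 RPKM to 6.71 and 6.05 RPKM (limma adjusted p = 1.55e-08). Rdh9 rose from 0.391 and 0.543 RPKM to 6.29 and 5.92 RPKM, a log2 fold change of 2.78 ± 0.12 (SE, adjusted p = 2.14e-09), which ranged from 2.28 to 3.46 over the alternatives, and its DMSO mean of 0.467 RPKM is near the pseudocount of 0.5. Rdh9 belongs to a cluster of similar genes that could share reads, and its relatives Rdh1 and Rdh16 were at 0.231 and 0.141 RPKM with T-5224. Rdh13 (log2 fold change 0.59), Rdh14 (0.36) and Rdh5 (0.32) rose by less, Rdh5 near the filter and not past the adjusted p without DMSO replicate 1 or without T-5224 replicate 1. Dhrs4, a retinal reductase, fell by 0.80 on the log2 scale, and Sdr16c5, a retinol dehydrogenase of epidermis, fell by 1.66, from 1.90 to 0.258 RPKM on average.

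With SB431542, where 10.0% of all genes fell and 10.2% rose, 1 of the 6 such enzymes that passed the filter changed. Adh7 rose from 8.42 ± 0.271 to 9.98 ± 0.164 RPKM (log2 fold change 0.23 ± 0.06, SE, limma adjusted p = 0.0263), a call that was lost with the replicate number as a block and without any 1 of 5 libraries (DMSO replicates 2 and 3 and each SB431542 replicate). The median over the 6 was 0.13 on the log2 scale.

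Among other P450 enzymes, Cyp2s1, which can oxidize retinoic acid in skin, stood on opposite sides of DMSO in the 2 experiments. It was at 4.64, 4.23 and 5.03 RPKM in DMSO and 6.22, 6.05 and 5.46 RPKM with SB431542 (log2 fold change 0.32 ± 0.08, SE, limma adjusted p = 0.0352, lost with the replicate number as a block, with no filter, and without DMSO replicate 2 or any 1 SB431542 library). With T-5224 it fell from 7.27 and 7.14 RPKM to 1.74 and 1.60 RPKM (-1.83 ± 0.10, adjusted p = 9.59e-09). The difference between the experiments was not tested. Cyp26a1 is not listed in either table. Cyp26c1 is listed in the T-5224 table alone, with a mean of at most 0.013 RPKM in its groups. Nearly all Cyp26 RNA listed here was therefore that of Cyp26b1.

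Carriers and storage genes were few. Fabp5 is a carrier proposed to bring retinoic acid to Ppard, which was not measured here. Its RNA rose with SB431542 from 128 ± 7.87 to 184 ± 8.09 RPKM (log2 fold change 0.52 ± 0.06, SE, limma adjusted p = 0.0023). With T-5224 it rose from 30.5 ± 0.781 to 35.9 ± 1.28 RPKM (0.23 ± 0.06, adjusted p = 0.00355), a call that quantile normalization removed. Stra6, the retinol importer, was under the filter, at 0.372 and 0.487 RPKM in DMSO and 0.070 and 0.022 RPKM with T-5224. Dgat1, which can store retinol as an ester, rose with T-5224 by a log2 fold change of 0.27 (adjusted p = 0.00237), and its log2 fold change with SB431542 was -0.12 (adjusted p = 0.314).

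Nuclear receptors that pair with Rxra changed in both directions. Vdr, the vitamin D receptor, fell with both inhibitors. It went from 28.5, 28.5 and 29.0 RPKM to 19.9, 20.4 and 18.7 RPKM with SB431542 (log2 fold change -0.53 ± 0.05, SE, limma adjusted p = 0.00113). With T-5224 it went from 39.2 and 42.5 RPKM to 13.1 RPKM in both libraries (-1.60 ± 0.06, adjusted p = 1.06e-09). Ppard rose with T-5224 from 19.6 and 20.4 RPKM to 67.2 and 65.8 RPKM (1.71 ± 0.06, limma adjusted p = 2.31e-10).

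The other partners moved less with T-5224. Thra fell by 0.54 on the log2 scale, and Nr4a1 (0.92), Nr4a2 (0.27) and Nr1h2 (0.18) rose, Nr4a2 losing its call with no filter and without DMSO replicate 1 or either T-5224 library, and Nr1h2 with quantile normalization and without T-5224 replicate 1. Nr4a1 passed the filter only through the T-5224 libraries (0.81 RPKM in DMSO and 2.004 RPKM with T-5224). With SB431542, Nr1h4 fell by 0.75 and Nr4a1 rose by 0.39, both lost when SB431542 replicate 1 or 2 was left out, and Nr4a1 also without DMSO replicate 3 or SB431542 replicate 3. Nr1h4 passed the filter only through DMSO (1.67 against 0.811 RPKM). In all, 2 of 7 partners fell and 1 rose with SB431542, and 2 of 7 fell and 4 rose with T-5224. Of all genes, 10.0% fell and 10.2% rose with SB431542, and 39.4% fell and 40.3% rose with T-5224.

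**Figure D4:**
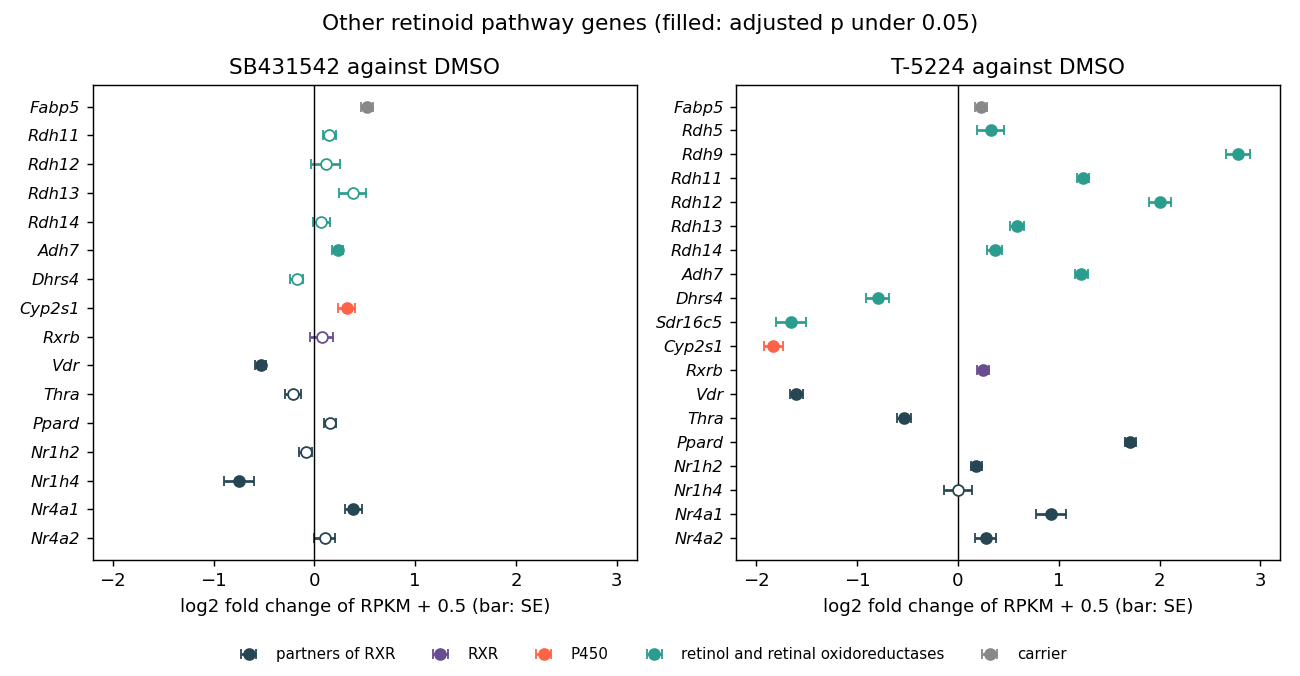
Log2 fold change of RPKM + 0.5 (x axis, bars SE) of the other carriers, oxidoreductases, P450 enzymes, retinoid X receptors and their partners that passed the filter, with SB431542 on the left and T-5224 on the right and filled points at an adjusted p under 0.05. The points spread from -1.83 (Cyp2s1) to 2.78 (Rdh9) with T-5224 and from -0.75 (Nr1h4) to 0.52 (Fabp5) with SB431542.

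Of 9 coregulators of nuclear receptors, 4 fell and 1 rose with T-5224, where 39.4% of all genes fell and 40.3% rose. The coactivator Ncoa2 fell by 0.62 on the log2 scale, the acetyltransferase Ep300 by 0.31, Ncor1 by 0.21 and the coactivator Ncoa3 by 0.21, and the mediator subunit Med1 rose by 0.41. The call of Ncor1 was lost without DMSO replicate 2 or T-5224 replicate 2, and that of Ncoa3 without either T-5224 library. With SB431542, where 10.0% of all genes fell and 10.2% rose, 0 of the 9 fell and 1 rose. This was Hdac3, the deacetylase of the corepressor complex, with a log2 fold change of 0.26 (limma adjusted p = 0.0198), lost with the replicate number as a block and without any 1 SB431542 replicate.

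Genes known to rise with retinoic acid in some cells were tested in the same fits. With SB431542, where 10.0% of all genes fell and 10.2% rose, 1 of 6 fell and 0 rose. This was Meis1, a homeobox gene, with a log2 fold change of -0.40 and an adjusted p of 0.0485 (limma), which held in 5 of 13 alternatives and was lost, among others, without DMSO replicate 3 or any 1 SB431542 library. With T-5224, where 39.4% of all genes fell and 40.3% rose, 4 of 7 fell and 2 rose. Krt13, a keratin of internal epithelia, fell by 1.82 on the log2 scale, Meis2 by 1.19, the antiproliferative gene Btg2 by 1.04 and Meis1 by 0.62. Krt13 passed the filter only through DMSO, with 2.16 RPKM there and 0.256 RPKM with T-5224, and in the SB431542 table it was under the filter. Hbegf, a ligand of the EGF receptor, rose by a log2 fold change of 1.18 and Rai14 by 0.23, the latter lost without T-5224 replicate 1. Of the differentiation genes that retinoic acid lowers in keratinocytes, Krt10 alone passed the filter, and its log2 fold change was 0.07 (adjusted p = 0.65) with SB431542 and -0.73 (adjusted p = 0.000275) with T-5224.

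Some markers of the cell type moved beside these genes. The 7 markers of basal keratinocytes summed to between 10003 and 10172 RPKM in DMSO and 7025 and 7482 RPKM with SB431542. In the T-5224 experiment they summed to between 12497 and 13278 RPKM in DMSO and 1785 and 1842 RPKM with the inhibitor. All 7 of the 7 were lower at an adjusted p under 0.05 (limma), beside 39.4% of all genes. Krt5 fell there from 6002 ± 121 (SD, n = 2) to 589 ± 13.6 RPKM, and Trp63, the master factor of the epidermis, from 74.9 ± 1.89 to 49.5 ± 1.12 RPKM. With SB431542, 3 of the 7 fell and 1 rose, where 10.0% of all genes fell and 10.2% rose. Krt14 (log2 fold change -0.81), Col17a1 (-0.54) and Krt5 (-0.30) fell and Krt15 (0.49) rose. Trp63 (0.10), Itga6 (0.04) and Itgb4 (0.04) were not past the adjusted p (limma, 0.533, 0.645 and 0.673). Krt5 and Krt14 made up most of each sum given above. Krt5 lost its call with the replicate number as a block, with no filter and without any 1 SB431542 library. Quantile normalization removed the difference of Krt5, since a gene at the same rank in every library gets the same value there. That alternative cannot bear on Krt5. Krt15 lost its call with no filter and without DMSO replicate 2 or 3 or SB431542 replicate 1 or 2. Of 4 Hedgehog targets that mark BCC, Gli1 and Ptch1 passed the filter. Gli1 fell from 2.40 ± 0.102 to 1.42 ± 0.225 RPKM with SB431542 (limma adjusted p = 0.00977) and from 5.02 ± 0.203 to 1.25 ± 0.0955 RPKM with T-5224 (adjusted p = 5.21e-08). The log2 fold change of Ptch1 was -0.01 with SB431542 (limma adjusted p = 0.946), and it rose by 0.34 with T-5224 (adjusted p = 0.0126), a call lost without either T-5224 library. The part of these shifts in the levels of the retinoid genes was not tested. In bulk RNA, fewer cells of a type and less RNA per cell cannot be told apart.

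Most markers of other cells were under 1 RPKM. Of 5 fibroblast, 5 immune, 4 endothelial and 5 melanocyte markers, 1 of each list, namely Dcn, Cd68, Pecam1 and Mitf, reached 1 RPKM. Ptprc, Cd3e, Cdh5, Kdr, Lum, Dct and Mlana were at most at 0.0175 RPKM in the mean of any group or not listed. The summed fibroblast list lay between 2.43 and 4.13 RPKM in any library, the immune list between 7.03 and 33.2 RPKM, the endothelial list between 2.74 and 12.0 RPKM and the melanocyte list between 6.03 and 12.7 RPKM. Pecam1 fell with both inhibitors (log2 fold changes -0.97 and -1.27), Mitf fell with T-5224 (-0.54), Dcn rose with both (0.68 and 0.35), and Cd68 rose with T-5224 (0.89). The call of Dcn with T-5224 was lost with no filter and without DMSO replicate 2 or T-5224 replicate 1.

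The genes most like Cyp26b1 were found by the smallest root mean square difference from it over the 10 libraries, each on log2(RPKM + 0.5) and centred on the DMSO mean of its own table. Among 10462 genes tested in both tables these were Papss2, Sertad4, Nuak1, Txnip and Cpt1a, with differences of 0.08, 0.12, 0.13, 0.16 and 0.17. Papss2 makes the sulfate donor of the cell, Nuak1 is a kinase of the AMPK family, Txnip binds thioredoxin and Cpt1a brings fatty acids into mitochondria. Papss2 was at 4.90, 5.03 and 5.26 RPKM in DMSO and 1.94, 1.85 and 1.97 RPKM with SB431542, and went from 5.38 and 5.92 RPKM to 1.95 and 2.23 RPKM with T-5224. Of the other members, Dhrs3 was nearest to Cyp26b1, at place 43, and Rxra farthest, at place 3339. These places describe a measure that shares its libraries with the choice of the set, and they carry no test.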

How the data were processed

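The 2 deposited tables of ASZ001 RNA-seq were used. Per the study's methods and labels, libraries were made with the TruSeq Stranded mRNA kit and sequenced on a HiSeq2000, and the authors used TopHat for alignment to mm9, and HOMER for the RPKM that they deposited. Value columns left out numbered 0. The DMSO columns of the T-5224 table are numbered otherwise than the sample labels and were used as a group.

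Of 17680 and 16742 entries, 22 and 23 with names turned into dates were left out. The filter of 1 RPKM in the mean left 10842 and 10809 genes. Within each table, log2(RPKM + 0.5) of treated and DMSO libraries was fitted in limma 3.58.1 (R 4.3.3), using trended empirical Bayes moderation. Adjusted p-values are Benjamini-Hochberg values over all genes tested. Fold changes on this scale understate those of low genes. Genes were called at a log2 fold change beyond 1 and an adjusted p under 0.05. DESeq2, the authors' tool, needs counts and was not run.

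The members and the gene lists were chosen with earlier results of these data known, so they are no independent evidence. Some genes of these lists are not reported here. Named genes were all members, Pmepa1, up to 6 per list and experiment with the largest change at an adjusted p under 0.05, and the 5 most like Cyp26b1, with others named where a result turns on them. Depth and reads behind low values were worked out from the steps that whole reads leave in RPKM of short genes. Depth was searched for a high share of values on a step. That share came to at least 99.1%, and being searched for, it is no check on the depth. For low members the annotated coding length nearest to whole reads was used, and Crabp2 still lay up to 0.33 reads off. Intervals were set by replicate spread. Positions are from GENCODE on NCBIM37 (mm9) and promoters from RefSeq (GRCm38.p6). Alternatives were other pseudocounts (0.1 and 1), filters (none, and a mean of at least 5), median centring, quantile normalization, no trend, the replicate number as a block, no limit on the fold change, and each library left out.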

Additional observations from a re-analysis of the deposited data

How the results depend on the processing

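The 6 members that passed the filter kept the direction of their log2 fold change in all 14 SB431542 and all 11 T-5224 alternatives. With SB431542 the groups of Rarg and Rxra overlapped, and Rarg came to -0.007 without DMSO replicate 2, so their direction there is not established. Cyp26b1 in both experiments and Rxra with T-5224 stayed beyond the limit of 1. Changing the filter, the trend or the block leaves these log2 fold changes as they were by construction. Their direction and size were thus probed by the other alternatives alone. Cyp26b1 ranged from -1.35 to -1.22 with SB431542 and from -1.25 to -1.09 with T-5224, and Rxra with T-5224 from -1.19 to -1.07. Dhrs3 with SB431542 ranged from -0.98 to -0.84, always inside that limit. Rdh10 with SB431542 was not past the adjusted p without SB431542 replicate 2 or replicate 3. The set was chosen on these comparisons, so the adjusted p-values and calls of its members are a description and no test. The limit on the fold change moved the counts most. Without it, SB431542 had 1085 genes down, 3 members among them, and 1107 up. T-5224 then had 4260 genes down, 6 members among them, and 4356 up. With SB431542 the genes called up numbered 25, and 38 with a pseudocount of 0.1, 12 with a pseudocount of 1 and 10 at a mean RPKM of at least 5, where 41 in place of 63 were called down. At that filter fewer genes are tested, and 742 in place of 1144 were called down with T-5224. There the retinoid list genes lower numbered 1 (SB431542) and 9 (T-5224), while 11 were higher (T-5224). With each library of the SB431542 experiment left out in turn, the retinoid list genes lower numbered from 1 to 6 and those higher from 1 to 9, and the cause was not tested beyond the smaller number of samples. With SB431542 the replicate number as a block left 2 of the 5 retinoid list genes higher and changed no call of a member. The deviations of same-numbered DMSO and SB431542 libraries correlated at -0.15, 0.15 and -0.09, and not every library correlated best with its own number, so the numbers were not taken to pair the samples. The T-5224 groups share no replicate numbers in the labels, so they had no block. With 2 libraries a group, leaving 1 out of the T-5224 experiment assumes that the lone library varies like the others. Members under 1 RPKM rest on few reads, and depth limits what they can show.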
